A study of Mus musculus with 4 samples.

Results

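The genes described here encode the enzymes that carry glucose carbon from hexokinase to lactate, the pyruvate dehydrogenase complex with its kinases and phosphatases, the tricarboxylic acid (TCA) cycle with pyruvate carboxylase, and the main enzymes of glycogen. They were chosen by symbol from a fixed list of 54 genes, of which 52 were found among the 12408 genes measured, and the list used no measured value. The other two, Aldoc and Gapdh, are not analysed here. Of the 52, 19 belong to glycolysis, 11 to pyruvate oxidation, 18 to the TCA cycle and 4 to glycogen.

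RNA from whole mouse hearts was sequenced in 4 libraries, each from 1 C57BL/6 mouse aged 3 months. The series asks what loss of WW45, the Hippo pathway scaffold encoded by Sav1, does to the heart at rest and under pressure load. Both control (CT) mice carried the floxed WW45 alleles (WW45 flox/flox), 1 at baseline and 1 after 4 weeks of transverse aortic constriction (TAC), an operation that narrows the aorta and loads the left ventricle. Both conditional knockout (cKO) mice carried the same floxed alleles and Cre recombinase under the alpha-MHC promoter (WW45 flox/flox-alpha-MHC-CRE), which is active in cardiomyocytes, again 1 at baseline and 1 after 4 weeks of TAC. No group carried Cre without the floxed alleles, so effects of Cre and of the deletion cannot be told apart, and the labels name no sham operation for the baseline mice.

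The adult heart draws most of its ATP from the oxidation of fatty acids and less from glucose. Pyruvate from glycolysis enters the mitochondrion and is turned into acetyl-CoA by the pyruvate dehydrogenase complex. Kinases of the Pdk family switch that complex off by phosphorylation, and the Pdp phosphatases switch it on. The TCA cycle then oxidises acetyl-CoA whatever its source. Under pressure load the heart is known to use relatively more glucose and to return in part to the isozymes of the fetal heart.

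Recovered reads assigned to genes numbered 2796547 at baseline and 2064655 after TAC in the control mice, and 1587840 and 1772153 in the cKO mice. Levels are given as CPM, which are reads scaled to a common library size, and 1 read was worth 0.371, 0.499, 0.612 and 0.544 in the same order. At least 100 reads were found in every library for 44 of the 52 genes, and only 1, Pdk3, had fewer than 10 in some library. With 1 mouse per group, the spread between mice was not measured. A pair of libraries is therefore described by the log2 ratio of the deposited values and a 95% Clopper-Pearson interval of the ratio, which covers counting error only, since PCR copies one molecule into many reads. A call needs a ratio of 2-fold or more and an interval that leaves out 1. The share of all 12408 genes called in the same way is given beside each count as the background.

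The targeted gene did not separate the libraries by genotype. Sav1 stood at 49.3 CPM (133 reads) at baseline and 35.4 CPM (71 reads) after TAC in the control mice. In the libraries labelled cKO it stood at 39.8 CPM (65 reads) at baseline and 46.2 CPM (85 reads) after TAC. The log2 ratio of the labelled cKO to the CT library was −0.31 at baseline and 0.38 after TAC, so after TAC the library labelled cKO held no less of the transcript than the control. Gene totals do not show which exons the reads came from, and the heart holds many cells in which the promoter is not active. Directions drawn from a library labelled cKO rest on that label.

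Markers of heart muscle were present in all 4 libraries. All 12 cardiomyocyte markers were found, with a summed level of 143700, 144900, 126000 and 113300 CPM in CT baseline, CT TAC, cKO baseline and cKO TAC. All 9 fibroblast markers were found and none was at 0, with summed levels of 1510, 5176, 2547 and 5628 CPM, and 7 of the 9 were called higher in each TAC library than in the baseline library of its genotype. Macrophage markers (9 of 9 found, none at 0) summed to 434, 633, 989 and 878 CPM, erythroid markers (3 of 5 found) to 1092, 737, 1565 and 2240 CPM, and mural cell markers (5 of 5) to 535, 431, 882 and 757 CPM. The higher mural sums in cKO came from Acta2, at 202, 161, 594 and 490 CPM. Of the 5 mural markers it alone was called higher in cKO than in CT, and Tagln was called lower at baseline. The median log2 ratio of cKO to CT over the 5 was −0.22 at baseline and −0.067 after TAC. Endothelial markers (8 of 8) stayed between 1407 and 1621 CPM. Skeletal muscle markers (6 of 8) summed to at most 14.97 CPM, with Mylpf at 0 in CT baseline and Myh1 at 0 in cKO baseline, and 1 gene each of the lymphocyte, atrial and adipocyte lists was found, at no more than 5.44 CPM. Whole-heart RNA cannot separate fewer cells of a type from less RNA per cell, and the part of these cell types in the results was not tested.

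Summed over the 52 genes, RNA for central carbon metabolism was highest in CT baseline, at 48060 CPM (95% Poisson interval 47800 to 48320). It was 42660 CPM (42370 to 42940) in CT TAC, 38600 CPM (38300 to 38900) in cKO baseline and 37210 CPM (36930 to 37490) in cKO TAC. All measured genes summed to 1037000, 1031000, 971200 and 963800 CPM in CT baseline, CT TAC, cKO baseline and cKO TAC. The scaling thus lowered every sum in the cKO libraries somewhat relative to CT. As a share of recovered reads the 52 genes made up 4.64%, 4.14%, 3.97% and 3.86%. TCA cycle genes summed to 22520, 17800, 18190 and 16640 CPM in the same order, and were thus highest in CT baseline. Glycolytic genes summed to 17150, 18010, 13880 and 14490 CPM, lower in both cKO libraries than in both CT libraries. The sums for pyruvate oxidation were 3926, 3695, 2862 and 2887 CPM, and those for glycogen were 4460, 3155, 3669 and 3197 CPM.

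**Figure D1:**
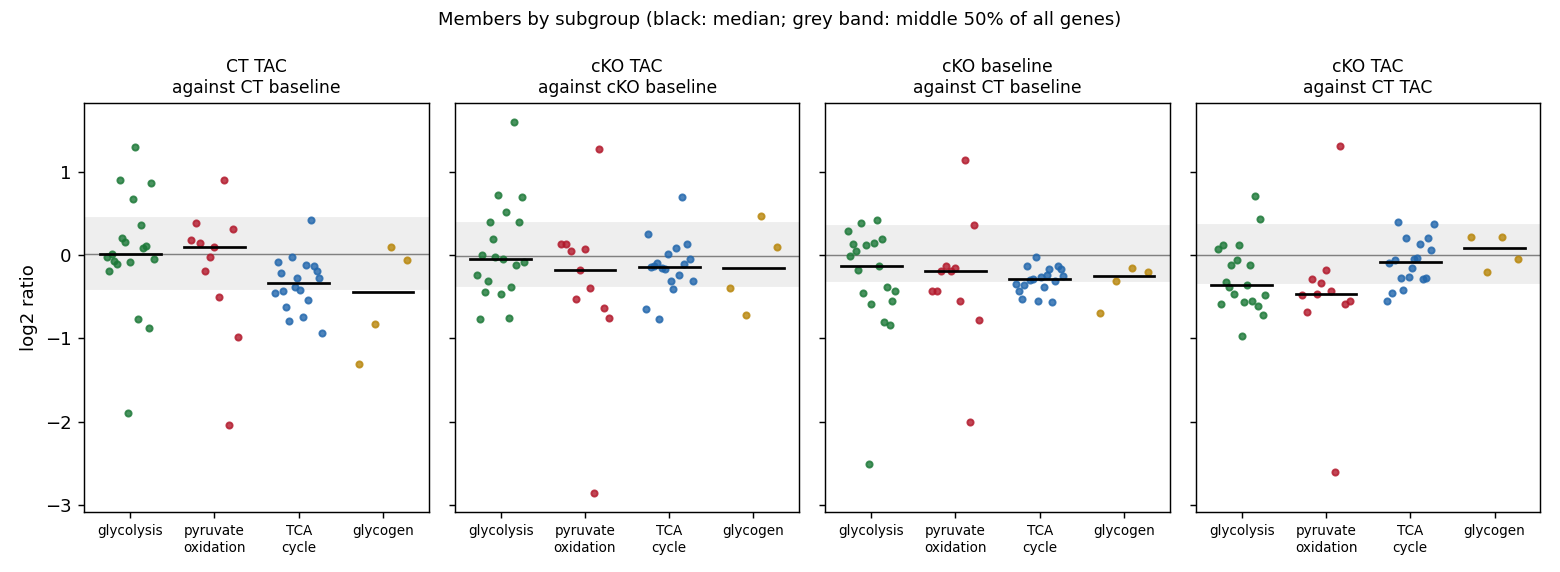
Log2 ratio of each of the 52 genes in the 4 pairs of libraries, by subgroup, with 1 point per gene, black lines for subgroup medians and a grey band for the middle 50% of all genes. In cKO baseline against CT baseline all 18 TCA cycle points lie below 0, where 49.6% of all genes do. In CT TAC against CT baseline 17 of 18 do, where 49.1% of all genes do, while glycolysis lies on both sides with a median of 0.0098.

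In the control hearts, TAC went with lower TCA cycle RNA, lower RNA of some glycogen genes and no shared direction in glycolysis. In CT TAC against CT baseline, 1 of the 52 genes was called higher, Pgk1, against a background of 6.05%, and 3 were called lower, Pfkfb1, Pdk4 and Gys1, against 4.67%. The median log2 ratio was −0.096 over the 52 genes and 0.011 over all genes, and 34 of the 52 (65.4%) lay below 0, against 49.1% of all genes. By subgroup the medians were −0.33 for the TCA cycle, −0.44 for glycogen, 0.0098 for glycolysis and 0.094 for pyruvate oxidation. Of the 4 glycogen genes 3 lay below 0, and the counting interval lay below 1 for 2 and above 1 for 1. The counts of calls at 2-fold lay near the background.

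In the cKO hearts, the number of calls with TAC lay near the background. In cKO TAC against cKO baseline, Eno1 and Pdk4 were called higher (2 of 52, background 3.68%) and Pdk3, from 5 and 0 reads, was called lower (1 of 52, background 2.83%). The median was −0.11 and 32 of 52 genes (61.5%) lay below 0, against 50.2% of all genes. The TCA cycle had a median of −0.14 with 13 of 18 genes below 0, and glycolysis one of −0.045 with 11 of 19 below 0.

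Most of the 52 genes were slightly lower in the cKO libraries than in the CT libraries of the same state, few by much. In cKO baseline against CT baseline none was called higher (background 3.26%) and 2 were called lower, Pfkfb1 and Pdk4 (background 1.79%), while 42 of 52 (80.8%) lay below 0, against 49.6% of all genes, with a median of −0.26 against 0.0043. In cKO TAC against CT TAC, Pdk4 alone was called higher (background 2.93%) and none lower (background 2.09%), while 38 of 52 (73.1%) lay below 0, against 49.4%, with a median of −0.27 against 0.0074. Scaling to total reads shifted all genes upward in both genotype pairs, to medians of 0.096 at baseline and 0.10 after TAC. On that scale 40 and 32 of the 52 genes lay below 0, and the medians relative to those of all genes were −0.26 and −0.27. More of the abundant genes lay below 0 in general. Among the 43 of the 52 with an average level of 100 CPM or more, 83.7% lay below 0 at baseline (median −0.28) and 72.1% after TAC (median −0.26). Of all 1508 genes at that level, 60.9% lay below 0 at baseline (median −0.085) and 57.6% after TAC (median −0.058). The 4 pairs share libraries, each library entering 2 pairs, so a value that is high or low in 1 mouse appears in both.

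A lower threshold of 1.5-fold, with the interval still leaving out 1, called more of the lower-lying genes. In CT TAC against CT baseline it called 3 higher (Pfkp, Pgk1 and Ldha, background 11.4%) and 11 lower (background 9.81%), the latter from all 4 subgroups, with Ogdh, Sdha, Idh3g and Pcx from the TCA cycle and Gys1 and Pygm from glycogen. In cKO TAC against cKO baseline it called 4 higher (Eno1, Ldha, Pdk4 and Sdhd, background 7.47%) and 7 lower (background 6.56%), among them Hk2, Cs, Ogdh and Pygm. In cKO baseline against CT baseline it called 0 higher (background 5.86%) and 5 lower (Pfkfb1, Eno1, Pkm, Pdk4 and Gys1, background 4.95%). In cKO TAC against CT TAC it called 2 higher (Eno1 and Pdk4, background 6.07%) and 4 lower (Pfkfb2, Eno3, Ldha and Pdhb, background 6.03%). As shares of the 52 genes, the lower calls came to 21.2%, 13.5%, 9.62% and 7.69% in the order of these pairs and the higher calls to 5.77%, 7.69%, 0.0% and 3.85%. Among genes with a mean CPM of at least 100, the lower calls came to 7 of 43 (16.3%) against 12.9% of all such genes with TAC in the control mice, 4 of 43 (9.3%) against 7.29% with TAC in cKO, 4 of 43 (9.3%) against 6.1% in cKO baseline against CT baseline, and 3 of 43 (6.98%) against 7.36% in cKO TAC against CT TAC. The excess over the background was thus smaller among genes of like level, and absent in the last pair.

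**Figure D2:**
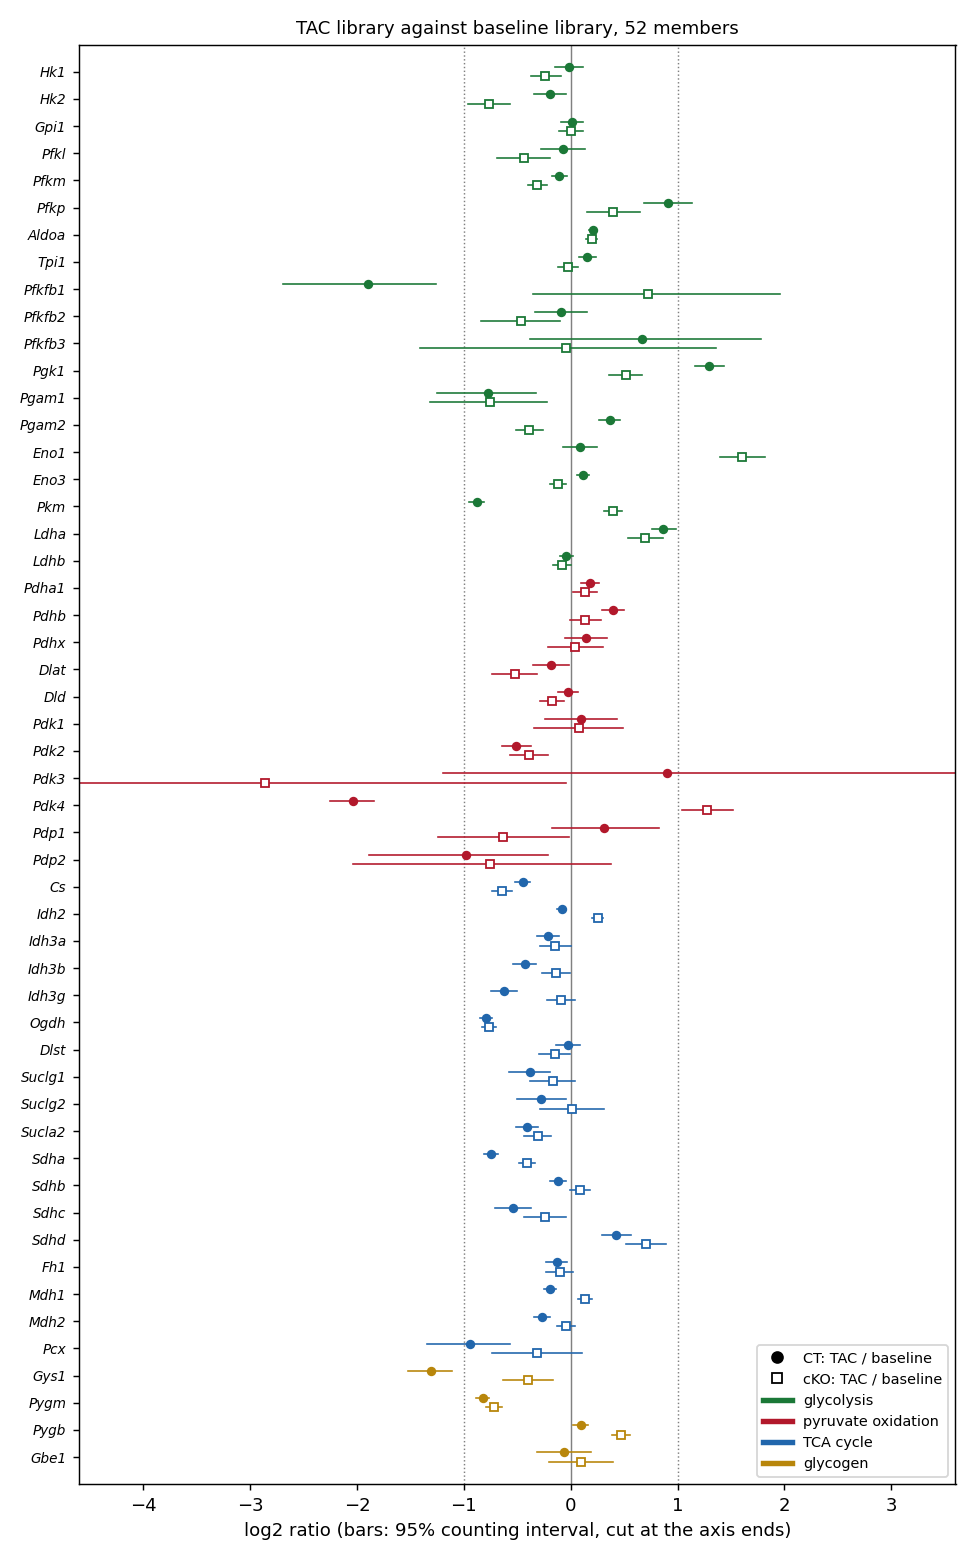
Log2 ratio of TAC to baseline for each of the 52 genes, with filled circles for CT and open squares for cKO. Bars are 95% counting intervals and dotted lines mark 2-fold. Pdk4 lies at −2.04 in CT and 1.27 in cKO, whereas Ogdh and Pygm lie between −0.82 and −0.72 in both.

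Of the entry and upper steps, the fructose-bisphosphate aldolase gene Aldoa was the most abundant, by CPM and per kilobase of exon. It stood at 4994 CPM at baseline and 5756 after TAC in the control mice, and 3650 at baseline and 4179 after TAC in the cKO mice. Both cKO libraries were lower than both CT libraries, with log2 ratios of −0.45 at baseline and −0.46 after TAC, and its reads were in part shared with other genes. The hexokinases, which trap glucose as glucose 6-phosphate, differed from each other. Hk2, the insulin-responsive form of muscle, was at 345 CPM in CT baseline, 303 in CT TAC and 343 in cKO baseline but at 202 CPM in cKO TAC. Hk1, whose reads were in part shared with other genes, lay between 422 and 522 CPM. The ratio of Hk2 to Hk1 per kilobase of exon was 0.699, 0.620, 0.567 and 0.393 in CT baseline, CT TAC, cKO baseline and cKO TAC, and the log2 change of that ratio with TAC was −0.17 (95% interval −0.37 to 0.024) in CT and −0.53 (−0.76 to −0.29) in cKO.

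Phosphofructokinase, which commits sugar to glycolysis, is made in the heart mainly from the muscle subunit Pfkm. Pfkp, the platelet subunit, was at 106 CPM at baseline and 198 after TAC in the control mice, and 138 at baseline and 182 after TAC in the cKO mice, and so was higher in each TAC library than in its baseline partner. Its log2 ratios with TAC were 0.91 (ratio interval 1.61 to 2.19) in CT and 0.40 (1.11 to 1.57) in cKO. Pfkm went from 1466 to 1363 CPM in CT and from 1300 to 1046 CPM in cKO. Per kilobase, Pfkp reached 0.0503 of Pfkm in CT baseline and 0.122 in cKO TAC, and its reads were in part shared with other genes. Pfkp is also expressed outside cardiomyocytes, and the fibroblast marker sums given above moved with it, whose part in this was not tested. The remaining upper genes, Gpi1, Pfkl and Tpi1, had log2 ratios between −0.44 and 0.16 in the 4 pairs.

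The Pfkfb genes encode the bifunctional enzymes that make and remove fructose 2,6-bisphosphate, the strongest known activator of phosphofructokinase. Pfkfb1, on the X chromosome (chrX:150588229-150643878, plus strand, GRCm38) and best known from liver and skeletal muscle, was at 40.4 CPM (109 reads) at baseline and 10.5 CPM (21 reads) after TAC in the control mice, and 6.73 CPM (11 reads) at baseline and 11.4 CPM (21 reads) after TAC in the cKO mice. CT baseline was high and the other 3 libraries were low, and the counting intervals of those 3 overlapped. The log2 ratio was −1.90 (ratio interval 0.154 to 0.417) for CT TAC and −2.50 (0.0808 to 0.310) for cKO baseline, both against CT baseline, and 0.72 (0.782 to 3.90) for TAC in cKO. A value that is high in only 1 mouse cannot be set against the spread between mice.

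Pfkfb2, the cardiac form, which is activated by phosphorylation, stood at 127, 119, 84.4 and 60.9 CPM in CT baseline, CT TAC, cKO baseline and cKO TAC. It was lower in both cKO libraries, with log2 ratios of −0.58 (ratio interval 0.542 to 0.814) at baseline and −0.96 (0.404 to 0.642) after TAC. Pfkfb3, the inducible form, was rare, at 5.47, 8.99, 6.12 and 5.91 CPM, and no pair differed beyond counting error. Reads of Pfkfb2 and Pfkfb3 were in part shared with other genes.

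Among the lower steps, Pgk1, the phosphoglycerate kinase that makes the first ATP of the pathway, showed the highest TAC ratio of the 52 genes in CT. It lies on the X chromosome (chrX:106187100-106203699, plus strand) and stood at 248 CPM at baseline and 611 after TAC in the control mice, and 333 at baseline and 475 after TAC in the cKO mice. Both TAC libraries were above both baseline libraries. The log2 ratio with TAC was 1.30 (ratio interval 2.24 to 2.71) in CT and 0.51 (1.28 to 1.59) in cKO.

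Ldha, the lactate dehydrogenase subunit that favours lactate formation, lies on chromosome 7 (chr7:46841475-46855627, plus strand). It stood at 414 CPM at baseline and 756 after TAC in the control mice, and 282 at baseline and 459 after TAC in the cKO mice. It was higher after TAC in both genotypes and lower in cKO in both states, so that cKO TAC lay near CT baseline. Its log2 ratio with TAC was 0.87 (ratio interval 1.69 to 1.98) in CT and 0.70 (1.45 to 1.82) in cKO, and the cKO library stood at −0.55 against CT at baseline and at −0.72 after TAC. Ldhb, the subunit that dominates in the adult heart, differed little with TAC, at 1754 and 1705 CPM in CT and 1301 and 1229 CPM in cKO. The ratio of Ldha to Ldhb per kilobase was 0.162 and 0.305 in CT and 0.149 and 0.257 in cKO, a log2 change of 0.91 (0.78 to 1.04) and 0.78 (0.60 to 0.97). Reads of both genes were in part shared with other loci.

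The 250 bases before the annotated start are shown for both genes because both were higher after TAC in each genotype, a choice made after their values were seen. The sequences are from RefSeq (GRCm38.p6), 5′ to 3′ on the strand of the gene, at chr7:46845554-46845803 for Ldha, from 1 of its 2 annotated starts, and chrX:106186850-106187099 for Pgk1, both on the plus strand. Capitals mark ACGTG or GCGTG, the core of the hypoxia response element, on either strand, and CACGTG, the E-box, which contains ACGTG on both strands.
Ldha: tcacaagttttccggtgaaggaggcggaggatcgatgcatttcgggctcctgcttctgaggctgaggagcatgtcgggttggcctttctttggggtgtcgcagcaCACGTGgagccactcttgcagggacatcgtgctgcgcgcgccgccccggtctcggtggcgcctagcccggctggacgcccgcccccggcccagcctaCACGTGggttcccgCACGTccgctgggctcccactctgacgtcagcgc
Pgk1: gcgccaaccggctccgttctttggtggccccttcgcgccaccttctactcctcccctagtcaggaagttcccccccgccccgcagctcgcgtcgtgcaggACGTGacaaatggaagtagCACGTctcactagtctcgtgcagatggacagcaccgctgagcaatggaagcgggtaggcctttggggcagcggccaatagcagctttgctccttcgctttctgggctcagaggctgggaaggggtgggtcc
The Ldha window held CACGTG at 145 to 140 and at 48 to 43 bases before the start and 1 further ACGTG on the opposite strand at 34 to 30 bases. The Pgk1 window held ACGTG at 150 to 146 bases and, on the opposite strand, at 131 to 127 bases before the start. A match is a description of letters and not of binding.

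Eno1 and Pkm had TAC ratios that differed between the genotypes. Eno3, the muscle enolase, was the most abundant of the lower genes by CPM and per kilobase, at 2353, 2549, 1811 and 1670 CPM in CT baseline, CT TAC, cKO baseline and cKO TAC. Eno1, the ubiquitous enolase that the fetal heart also uses (chr4:150236721-150248879, plus strand), was at 259.8 CPM at baseline and 276 after TAC in the control mice, and 149 at baseline and 454 after TAC in the cKO mice. It was lowest at baseline and highest after TAC among the cKO libraries, and about level in the CT libraries. Its log2 ratio with TAC was 0.087 (ratio interval 0.949 to 1.19) in CT and 1.60 (2.63 to 3.52) in cKO, a difference of 1.51 (counting interval 1.25 to 1.77). The annotation holds a retrogene copy, Eno1b, and its reads and those of Eno1 may not be separable, although Eno1 had whole reads in every library.

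Pkm encodes the muscle pyruvate kinases of both splice forms, which gene totals do not separate, and its reads were in part shared with other genes. It was at 2077 CPM at baseline and 1130 after TAC in the control mice, and 1166 at baseline and 1533 after TAC in the cKO mice, with CT baseline the highest. The log2 ratio with TAC was −0.88 (ratio interval 0.518 to 0.571) in CT and 0.39 (1.24 to 1.39) in cKO, a difference of 1.27 (1.16 to 1.38). The phosphoglycerate mutases Pgam1, the brain form, and Pgam2, the muscle form, had log2 TAC ratios of −0.77 and 0.36 in CT and −0.75 and −0.39 in cKO.

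**Figure D3:**
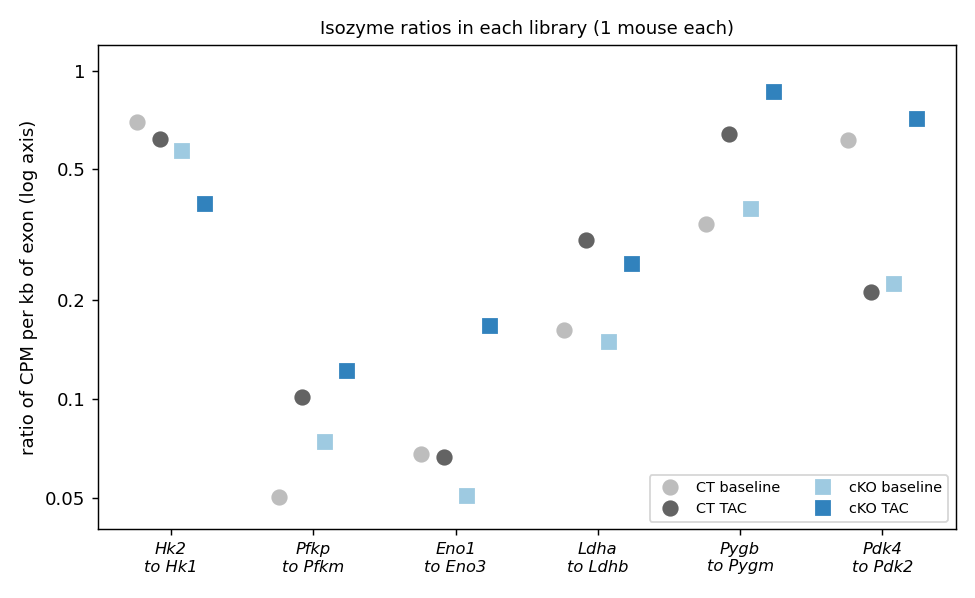
Ratio of paired isozymes per kilobase of exon in each library, on a log axis, with circles for CT and squares for cKO and the darker shade for TAC. Ldha to Ldhb and Pygb to Pygm are higher in each TAC library than in its baseline partner, while Pdk4 to Pdk2 is 0.614 in CT baseline and 0.710 in cKO TAC but 0.212 and 0.223 in the other two.

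All 5 subunit genes of the pyruvate dehydrogenase complex had log2 ratios of cKO to CT below 0 in both states, as did 49.6% of all genes at baseline and 49.4% after TAC. Of all genes with a mean CPM of at least 100, a level that the 5 also reached, 60.9% did at baseline and 57.6% after TAC. The counting interval lay below 1 for 3 of the 5 at baseline, where those of Dlat (0.813 to 1.03) and Pdhx (0.748 to 1.03) included 1, and for all 5 after TAC. The upper limits nearest below 1 were 0.942 for Dld at baseline and 0.959 for Pdhx after TAC. Scaling to total reads shifts the ratios of cKO to CT upward, so these counts of intervals depend on the scaling. Pdha1, the catalytic E1 alpha subunit and the one with the highest CPM, stood at 937, 1064, 696 and 766 CPM in CT baseline, CT TAC, cKO baseline and cKO TAC. Both cKO libraries were below both CT libraries, by −0.43 (log2) at baseline and −0.47 after TAC. Pdhb, the E1 beta subunit, had log2 ratios of −0.42 and −0.68 in those pairs, and those of Pdhx, Dlat and Dld lay between −0.46 and −0.12. The median of the 5 genes was −0.19 at baseline and −0.46 after TAC, and with TAC it was 0.14 in CT and 0.045 in cKO.

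Pdk4 showed the largest contrast between the genotypes among the genes with more than 10 reads in every library. It encodes the pyruvate dehydrogenase kinase that rises in fasting and whenever fatty acids are the main fuel, and it lies on chromosome 6 (chr6:5483351-5496309, minus strand). It was at 481.5 CPM (1299 reads) at baseline and 117 CPM (234 reads) after TAC in the control mice, and 119.9 CPM (196 reads) at baseline and 290.4 CPM (534 reads) after TAC in the cKO mice. CT baseline was the highest and cKO TAC the next, and CT TAC and cKO baseline were both low and about level. The level in CT TAC was 4.11-fold below CT baseline (log2 ratio −2.04, ratio interval 0.210 to 0.279). In cKO it was 2.42-fold higher after TAC (log2 ratio 1.27, 2.05 to 2.87). Against the CT library of the same state, the cKO library was 4.00-fold lower at baseline (log2 ratio −2.001, 0.213 to 0.290) and 2.48-fold higher after TAC (1.31, 2.13 to 2.91). It was the only one of the 52 genes called at 2-fold in all 4 pairs.

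The promoter windows of Pdk4 and Pfkfb1 are shown because these were the genes called in the most pairs. They come from RefSeq (GRCm38.p6) and cover the 250 bases before the start, at chr6:5496279-5496528 on the minus strand for Pdk4 and chrX:150587993-150588242 on the plus strand for Pfkfb1, the latter from 1 of its 4 annotated starts. Capitals mark GCGTG on either strand, the only one of the searched motifs found in each.
Pdk4: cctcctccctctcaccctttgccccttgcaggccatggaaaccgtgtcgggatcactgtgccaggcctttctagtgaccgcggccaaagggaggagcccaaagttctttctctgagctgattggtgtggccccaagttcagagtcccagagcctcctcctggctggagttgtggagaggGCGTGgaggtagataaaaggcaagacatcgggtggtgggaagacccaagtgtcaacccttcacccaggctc
Pfkfb1: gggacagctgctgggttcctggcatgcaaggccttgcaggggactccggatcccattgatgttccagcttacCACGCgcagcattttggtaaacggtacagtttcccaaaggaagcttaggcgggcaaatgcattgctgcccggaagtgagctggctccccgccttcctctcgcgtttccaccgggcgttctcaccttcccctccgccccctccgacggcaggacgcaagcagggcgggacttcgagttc
The match lay 71 to 67 bases before the start of Pdk4 and, on the opposite strand, 178 to 174 bases before that of Pfkfb1. Neither window held TNAAGGTCA, the motif of the estrogen-related receptors, the direct repeat bound by the PPAR factors, or GGAATG, the motif of the TEAD factors through which the Hippo pathway acts. Such matches are uncommon in windows of this length, found for 1.3%, 0.0407% and 14.4% of all genes. Their absence describes letters in 250 bases and not binding.

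No other kinase was called in opposite directions. Pdk2, the most abundant kinase by its mean CPM over the libraries, was at 505, 355, 346 and 264 CPM in CT baseline, CT TAC, cKO baseline and cKO TAC. Its log2 ratio was negative in every pair, between −0.54 and −0.39. Pdk1 stayed between 56.3 and 66.9 CPM. Pdk3 had 3, 5, 5 and 0 reads. With 3 reads set for cKO TAC it was 1.88-fold lower there than in cKO baseline, under the 2-fold threshold that its deposited ratio passed. The counting interval of the ratio in that pair, 0 to 0.970, came close to no difference. Of the phosphatases, Pdp1, the calcium-sensitive form, was at 26.6, 33.2, 34.5 and 22.1 CPM, and Pdp2, the insulin-sensitive form, was at 18.2, 8.99, 10.4 and 5.98 CPM. Pdp2 was highest in CT baseline and had a log2 ratio of −0.98 with TAC in CT and −0.75 in cKO, from 49 reads at most.

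**Figure D4:**
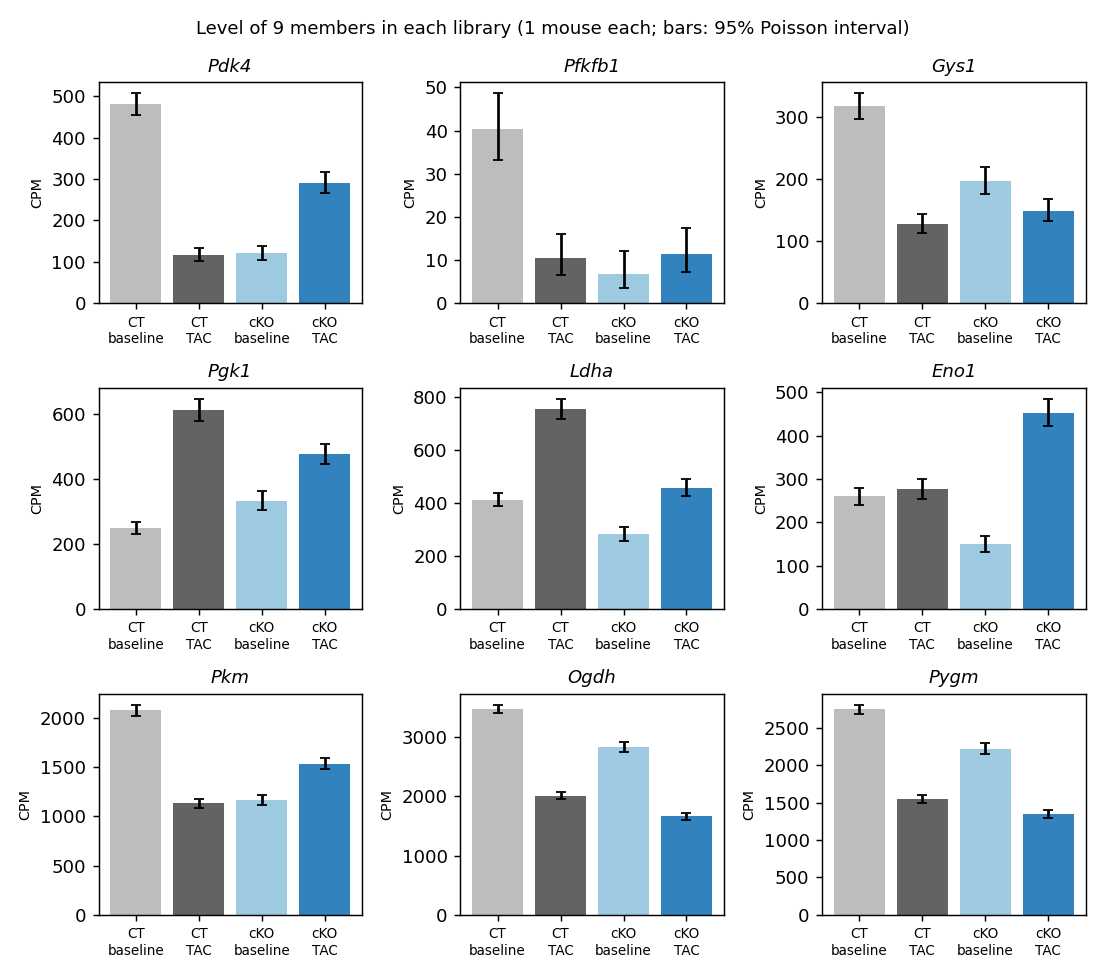
Level in CPM of 9 genes in each of the 4 libraries, with 1 bar per library (1 mouse each) and error bars for the 95% Poisson counting interval. Pdk4 and Pfkfb1 are highest in CT baseline, Pgk1 is highest in CT TAC, and Eno1 is highest in cKO TAC.

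TCA cycle genes differed little between libraries, none by 2-fold in any pair. Idh2, the mitochondrial NADP-dependent isocitrate dehydrogenase, was the most abundant, at 4504, 4246, 3340 and 3977 CPM in CT baseline, CT TAC, cKO baseline and cKO TAC, and of the 52 genes it also had the highest level per kilobase in every library. In CT, 17 of the 18 genes had log2 ratios with TAC below 0, from −0.94 for Pcx to −0.022 for Dlst, with Sdhd the exception at 0.42. In cKO, 13 of 18 did. At baseline all 18 had log2 ratios of cKO to CT below 0, from −0.57 for Sdhd to −0.017 for Suclg1, with a median of −0.29. After TAC, 12 of 18 lay below 0, with a median of −0.079. Of all 1508 genes with a mean CPM of at least 100, 52.3%, 52.3%, 60.9% and 57.6% lay below 0 in these pairs, in the order given. The counting interval lay below 1 for 16 of the 18 with TAC in CT and 8 with TAC in cKO. For cKO against CT it did so for 16 at baseline and 8 after TAC. It lay above 1 for 1, 3, 0 and 2 of the 18 in the same order of pairs. Under scaling to total reads the baseline count became 17 of 18 with a median of −0.20, and the count after TAC became 8 of 18 with a median of 0.018, so the direction of that last comparison depends on the scaling.

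Ogdh, the E1 subunit of the 2-oxoglutarate dehydrogenase complex (chr11:6291633-6356642, plus strand), was at 3474 CPM at baseline and 2009 after TAC in the control mice, and 2830 at baseline and 1663 after TAC in the cKO mice. Both TAC libraries were below both baseline libraries. The log2 ratio with TAC was −0.79 (ratio interval 0.557 to 0.600) in CT and −0.77 (0.561 to 0.615) in cKO. Citrate synthase, Cs, which opens the cycle, had the same order of libraries, at 1724, 1263, 1352 and 866 CPM, as did Sdha, the flavoprotein of succinate dehydrogenase, at 2547, 1519, 1954 and 1475 CPM. The 4 succinate dehydrogenase genes differed from each other: Sdha and Sdhc had log2 TAC ratios of −0.74 and −0.54 in CT, Sdhb one of −0.12, and Sdhd, a membrane anchor, one of 0.42, with −0.41, −0.24, 0.088 and 0.70 in cKO. Sdhd itself was at 334, 448, 225 and 366 CPM. The catalytic and regulatory subunits of NAD-dependent isocitrate dehydrogenase, Idh3a, Idh3b and Idh3g, had log2 TAC ratios of −0.21, −0.43 and −0.62 in CT and −0.14, −0.14 and −0.091 in cKO.

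Of the glycogen genes, the synthase Gys1 and the muscle phosphorylase Pygm were highest in CT baseline. Gys1 (chr7:45434844-45456619, plus strand) was at 316 CPM at baseline and 127 after TAC in the control mice, and 196 at baseline and 149 after TAC in the cKO mice, and its log2 ratio with TAC was −1.31 (ratio interval 0.349 to 0.464) in CT and −0.40 (0.643 to 0.894) in cKO. Pygm (chr19:6384399-6398459, plus strand), which releases glucose 1-phosphate from glycogen, was at 2749, 1553, 2223 and 1353 CPM. Both TAC libraries were below both baseline libraries, with log2 ratios of −0.82 in CT and −0.72 in cKO. Pygb, the brain phosphorylase that the fetal heart also expresses, was at 1273, 1358, 1144 and 1583 CPM. The ratio of Pygb to Pygm per kilobase was 0.341 and 0.643 in CT and 0.378 and 0.860 in cKO, a log2 change with TAC of 0.92 (0.82 to 1.01) and 1.18 (1.07 to 1.30). The branching enzyme gene Gbe1 lay between 105 and 121 CPM.

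**Figure D5:**
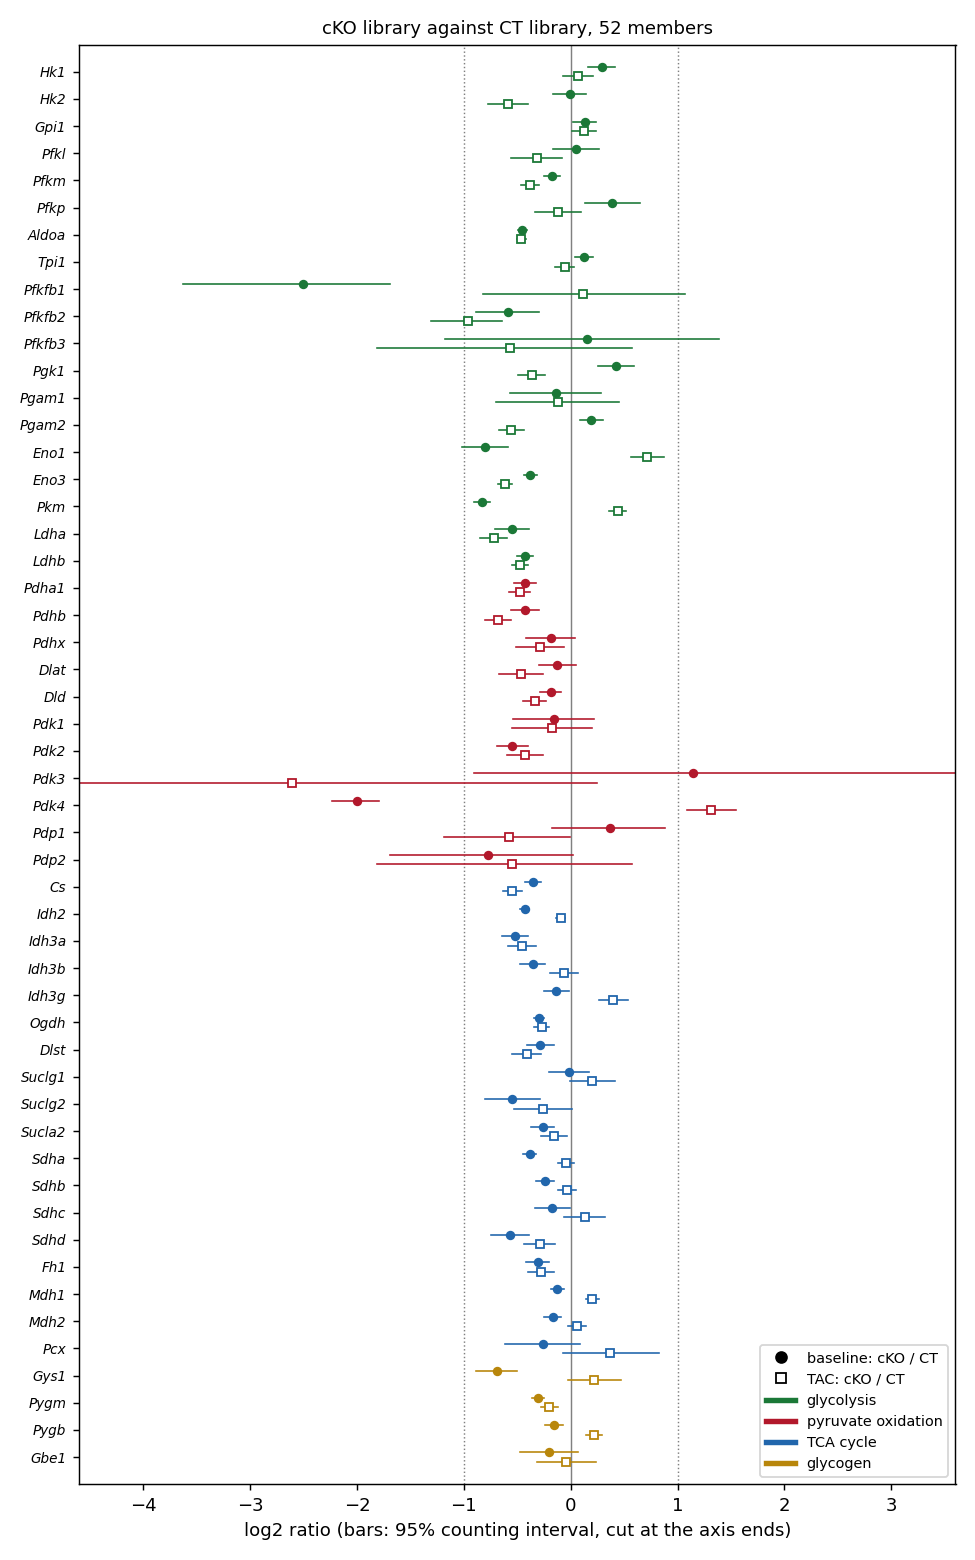
Log2 ratio of the cKO to the CT library for each of the 52 genes, with filled circles for baseline and open squares for TAC. Bars are 95% counting intervals, cut at the axis ends, and dotted lines mark 2-fold. All 18 TCA cycle genes lie below 0 at baseline and 12 of 18 do after TAC, where 49.6% and 49.4% of all genes do. Pdk4 is at −2.001 at baseline and 1.31 after TAC.

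An additive model of genotype and surgery over all 4 libraries gave the only test that the design allows, with 1 residual degree of freedom and 2 mice on each side. For TAC, limma with Benjamini-Hochberg adjustment over all 12408 genes called 1 of the 52 genes as risen (background 1.3%) and 2 as fallen (background 0.524%). Ldha rose by 0.78 on the log2 scale (SE 0.17, limma adjusted p = 0.0461). Ogdh fell by 0.78 (SE 0.17, limma adjusted p = 0.0476) and Pygm fell by 0.77 (SE 0.17, limma adjusted p = 0.0477), each in the same direction in both genotypes. All 3 lay just under the 0.05 threshold, and Pgk1 lay just above it, with a log2 effect of 0.91 (SE 0.20, limma adjusted p = 0.0526). The calls were lost with total-read scaling, with 0.5 or 5 added reads and without the mean-variance trend. At an unadjusted p under 0.05, limma placed 10 of the 52 genes as lower and 5 as higher after TAC, and 2012 of all genes (16.2%) in either direction. Among genes with a mean CPM of at least 100 it placed 12 of 43 members and 441 of all 1508 such genes. No excess was thus seen among genes of like level.

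For genotype, limma called none of the 52 genes, and 3 of the 12408 rose (0.0242%) and 0 fell (0.0%). At an unadjusted p under 0.05 it placed 12 of the 52, all lower in cKO, against 964 of all genes (7.77%) in either direction. Among genes with a mean CPM of at least 100 it placed 10 of 43 members, all lower. Of all 1508 such genes it placed 233, of which 147 were lower, so the excess was smaller among genes of like level. The median genotype effect was −0.24 over the 52 genes and 0.0065 over all genes. Since the additive model assumes one TAC effect in both genotypes, it gives little on genes such as Pdk4, whose pairs pointed in opposite directions, and whose fitted TAC effect was −0.38 (SE 0.53, limma adjusted p = 0.770).

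The difference between the TAC ratios of the genotypes has no test with 1 mouse per group. It was at least 2-fold with a counting interval that excluded 0 for 5 of the 52 genes. Pfkfb1, Eno1, Pkm and Pdk4 were higher in cKO (4 of 52, background 3.84%) and Pdk3 was lower (1 of 52, background 4.01%). Pdk3 had 3, 5, 5 and 0 reads in CT baseline, CT TAC, cKO baseline and cKO TAC. Its difference used the deposited value at 0 reads, but the width of its interval used 3 reads there, so that call is not a firm one. Among the 18 TCA cycle genes 16 had a higher ratio in cKO than in CT, with a median difference of 0.25, where 49.3% of all genes did. All 8 upper glycolytic genes had a lower one, with a median of −0.21, where 50.7% of all genes did. For Gpi1 (−0.0077, counting interval −0.16 to 0.14) and Aldoa (−0.0096, −0.070 to 0.051) the interval included 0.

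Genes of the same pathways outside the 52 numbered 53 on a list made for this purpose, of which 48 were analysed. In CT TAC against CT baseline 3 were called higher (6.25%, background 6.05%) and 6 lower (12.5%, background 4.67%). In cKO TAC against cKO baseline 1 was called higher (2.08%, background 3.68%) and 1 lower (2.08%, background 2.83%). In cKO baseline against CT baseline 2 were called higher (4.17%, background 3.26%) and 3 lower (6.25%, background 1.79%), and in cKO TAC against CT TAC none was called in either direction (background 2.93% and 2.09%). Those lower in CT TAC included Ogdhl, a homologue of Ogdh, at 298, 119, 186 and 129 CPM in the 4 libraries, the phosphorylase kinase subunits Phka1 (255, 114, 137 and 154 CPM) and Phkg1 (36.7, 16.97, 17.7 and 18.5 CPM), and the glucose transporter Slc2a12, with 13 reads at most. Fbp2, the muscle fructose bisphosphatase, was at 61.2, 26.5, 26.3 and 13.1 CPM and was called lower in CT TAC and in cKO baseline, both against CT baseline. As with Pfkfb1, CT baseline was the highest library for each of these.

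Called higher in CT TAC were the succinate dehydrogenase assembly factors Sdhaf2 (38.9, 92.4, 48.3 and 65.8 CPM in the 4 libraries) and Sdhaf4 (24.5, 63.9, 39.8 and 32.1 CPM), and the liver phosphorylase Pygl (4.45, 10.98, 7.34 and 15.8 CPM in the 4 libraries), which was also called higher in cKO TAC against cKO baseline. In cKO the log2 TAC ratio was 0.44 for Sdhaf2 and −0.31 for Sdhaf4, and for Sdhaf4 the difference from the ratio in CT was −1.67 (counting interval −2.34 to −1.01), at least 2-fold and not tested. Hk3, a hexokinase of blood cells, with 6 reads at most, and the assembly factor Sdhaf3 were called higher in cKO baseline against CT baseline. Slc2a4, the insulin-responsive glucose transporter, was at 442, 287, 301 and 248 CPM in the 4 libraries. By limma, none of the 48 was called for either term, and 14 for TAC and 7 for genotype had an unadjusted p under 0.05, where 16.2% and 7.77% of all genes did.

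Promoter letters were compared over the 49 of 52 genes with a RefSeq window of 250 bases before the start and over 27025 genes in all. ACGTG or GCGTG on either strand was found for 37 of the 49 (75.5%) and for 41.5% of all genes. CACGTG was found for 8 (16.3%) against 6.86%, GGAATG for 5 (10.2%) against 14.4%, and TNAAGGTCA and the PPAR direct repeat for none against 1.3% and 0.0407%. The 5 with GGAATG were Aldoa, Eno1, Eno3, Pdk2 and Pdp2. These are counts of letters, base composition was not matched, and some genes have several windows, so no inference on the factors is drawn from them.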

How the data were processed

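Total RNA from mouse hearts was made into Illumina libraries, per the labels' protocols. CASAVA, HISAT2, edgeR and mm10 appear in the submitters' processing notes, with no version or role. Which counter, annotation and gene filter were used is not given in the sources used here. Each deposited value is a log2 CPM, for the same 12408 genes in each of 4 libraries, and the spacing of the values shows 1 scaled read added before the logarithm and a library scaling factor. Reads were recovered from that spacing. Between 88.6% and 89.0% of genes per library gave whole reads (within 0.01), and 2449 genes (19.7%), among them 12 of the 52 members, had parts of reads, so no count model was run.

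Log2 ratios are differences of deposited values and understate changes of genes with few reads. Intervals are 95% Clopper-Pearson (single levels and sums: Poisson) from rounded reads. For a library at 0 reads, the ratio and call used the deposited value and the interval of the ratio used 0 reads. There, 3 reads were set for the alternative ratio of Pdk3 and for the interval width of the difference between TAC ratios. limma 3.58.1 under R 4.3.3, with its trend option, fitted genotype and surgery to the deposited log2 values. With 1 residual and 10.1 prior degrees of freedom, its p-values rest mainly on variance shared across genes, and the residual is the difference between the genotype effects. The fit was also run on simulated data with known genotype changes and no TAC effect, which did not check how changes with TAC are found. Gene coordinates and exon lengths are from GENCODE vM21 (GRCm38, the mm10 assembly).

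The list of members used no measured value, but it and the other lists, the motifs and the tests were chosen with earlier results of these data known. Values in all 4 libraries are given for members called in any pair or by limma, the Pfkfb, Pdk and Pdp families, the member with the highest mean CPM in each role group, the 2 highest and 2 lowest log2 ratios of each pair, and the 5 largest differences between TAC ratios. Other members and markers were named by choice. Alternatives covered scaling, added reads, a mean CPM of at least 5, the fold threshold, the trend and leaving out each library. A fit on genes with whole reads only was added after seeing the data. Values of some other genes of these pathways are not reported here.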

Additional observations from a re-analysis of the deposited data

Results flagged for a closer look

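Pdk4, the pyruvate dehydrogenase kinase gene, was called at 2-fold in opposite directions by TAC in the 2 genotypes. Its log2 TAC ratio was −2.04 in CT (481.5 to 117 CPM) and 1.27 in cKO (119.9 to 290.4 CPM), a difference of 3.31 with a counting interval of 3.00 to 3.62. The difference itself was not tested, since each group holds 1 mouse. Of all 12408 genes, 25 (0.201%) were called in opposite directions in this way.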

How the results depend on the processing

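No paired analysis was possible because each group holds 1 mouse and the labels give no shared replicate number. Median-of-ratios scaling left each count of calls within 1.5 times its main value and kept the direction of each median. At a 1.5-fold threshold more members were called: 3 higher and 11 lower in CT TAC against CT baseline, 4 and 7 in cKO TAC against cKO baseline, 5 lower in cKO baseline against CT baseline, and 2 higher and 4 lower in cKO TAC against CT TAC. With a mean CPM of at least 5, Pdk3 dropped out, which left 0 lower in cKO TAC against cKO baseline, and limma called 2 members as risen with TAC, Pgk1 joining Ldha. limma called 0 risen and 0 fallen with TAC under total-read scaling, with 0.5 added reads, with 5 added reads, without the trend and, as chosen after seeing the data, on genes with whole reads only. The cause was not tested, except that Ldha and Ogdh, which have parts of reads, are not in the last set. The median genotype effect of −0.24 became −0.14 under total-read scaling. Leaving out each library in turn reduces the fit to 1 pair of libraries per term, with no test. The resulting median TAC effects, −0.11 to −0.096, and genotype effects, −0.27 to −0.26, repeat the pair medians given above and are no separate check. Under the other alternatives none of these counts and medians changed direction. The TCA cycle median in cKO TAC against CT TAC, −0.079, became 0.018 under total-read scaling. Depth limits the rarest members, Pdk3 and Pfkfb3, whose intervals span several-fold.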

Other observations

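Genes on the way from glucose to glycogen differed from each other with TAC. Ugp2, which makes the UDP-glucose used by glycogen synthase, was at 1380 CPM at baseline and 2085 after TAC in the control mice, and 835 at baseline and 1297 after TAC in the cKO mice. Its log2 ratio with TAC was 0.60 in CT and 0.63 in cKO, and the cKO library stood at −0.72 against CT at baseline and −0.69 after TAC. Pgm1, listed by that symbol and encoding a phosphoglucomutase, was at 14.5, 29.0, 12.2 and 23.4 CPM in the same order, with log2 TAC ratios of 0.98 and 0.91. Pgm2, listed by that symbol and far more abundant, was at 564, 538, 464 and 452 CPM, with log2 TAC ratios of −0.067 and −0.039 whose counting intervals included no difference.

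The mitochondrial pyruvate carrier genes differed from each other. Mpc1 was at 48.9, 66.9, 37.3 and 65.8 CPM in CT baseline, CT TAC, cKO baseline and cKO TAC, higher in both TAC libraries. Mpc2 was at 442, 258, 307 and 251 CPM, highest in CT baseline. Txnip, which restrains glucose uptake, was likewise highest in CT baseline, at 694 CPM against 385 to 439 CPM in the other libraries. These genes were picked from the list after their values were seen, and no test between mice is possible.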
